A study of Rattus norvegicus with 100 samples.

Results

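The pituitary 72 h into an OECD uterotrophic assay was compared between immature female rats given ethinylestradiol (EE) and their controls. EE is a synthetic, orally active form of estradiol, and the uterotrophic assay scores estrogens by the growth of the immature uterus. The comparison used all 6 pituitary arrays labelled 72 h, 3 EE arrays (numbered 81, 82 and 83) and 3 control arrays (73, 75 and 76), out of 100 arrays in the study, of which 30 held pituitary RNA and 70 uterus RNA. The pituitary arrays formed 10 groups of 3, EE and control at 4, 8, 24, 48 and 72 h, and the 72 h controls were also set against the 12 earlier control arrays. The labels call the tissue pituitary gland without naming a lobe. The sources used here do not give the strain, the age in days, the dose and route of EE or what the controls received. The numbers of the 72 h pituitary arrays also occur on uterus arrays of the same group and time, but the labels do not say what a number stands for. Nothing in the labels says that the arrays of a group came from separate animals, so p-values measure the spread between these arrays, which may be technical.

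The anterior pituitary holds several hormone cell types. Gonadotrophs make the gonadotropins from Lhb and Fshb with the shared subunit Cga, and respond to gonadotropin-releasing hormone through its receptor, Gnrhr. Lactotrophs make prolactin (Prl), somatotrophs growth hormone (Gh1) and thyrotrophs thyrotropin (Tshb with Cga). Estrogen acts on the gland through its nuclear receptor, Esr1: it is known to restrain gonadotropin output, to raise prolactin output, and to increase lactotroph division and progesterone receptor (Pgr) levels.

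Biotin-labelled RNA was read on the Affymetrix RAE230A array, and the values are probe set intensities as the authors deposited them. A blank cell stood for 39.8% of probe set values on the 72 h arrays. Blanks took 40% ± 0.42 of probe sets on the EE arrays and 39.5% ± 0.647 on the controls (SD, n = 3 each; exact permutation p = 0.4, adjusted over 4 array measures 0.533). The median intensity was 106 ± 0.513 on the EE arrays and 108 ± 0.603 on the controls (exact permutation p = 0.1, the smallest that 3 against 3 allows; adjusted p = 0.2). Of the signs of RNA quality, the log2 ratio of 3' to 5' probe sets of Gapdh did not overlap between the groups, at -0.301 to -0.244 on the EE arrays and -0.23 to -0.119 on the controls (exact permutation p = 0.1, adjusted p = 0.2); the 12 earlier controls ran from -0.23 to 0.0209. The same ratio of Actb did overlap, at 1.35 to 1.56 and 1.43 to 1.60 (exact permutation p = 0.7, adjusted p = 0.7). The part of RNA quality in the differences below was not tested. The gland's hormone genes were bright on all 6 arrays: Gh1 read 6149 to 6796 and Prl 5349 to 6983, the latter being the highest intensity of any gene there. Pomc, which defines corticotrophs and melanotrophs, was blank on all 6.

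Each gene was represented by its brightest single-gene probe set, and differences are given as EE minus control in log2(intensity + 33.7), with a standard error (SE); the offset of 33.7 is the 10th percentile of the pituitary intensities and makes the differences of dim genes smaller. By limma's moderated test with Benjamini-Hochberg adjustment, 179 of 6625 genes tested passed an adjusted p under 0.05 at 72 h (2.70%). Of these, 115 were higher with EE (1.74% of genes tested) and 64 lower (0.966%). On this offset scale 2 of the higher and 4 of the lower genes reached 2-fold, and by the ratio of mean intensities without the offset 9 and 11 did. With quantile normalization 74 genes were higher and 55 lower. The 6 arrays did not overlap for 172 of the 174 passing genes with all 6 values, against 1416 of 6174 tested genes with all 6 values (22.9%). Leaving out 1 array at a time gave 99, 115 and 89 passing genes without control arrays 73, 75 and 76, and 82, 120 and 97 without EE arrays 81, 82 and 83. Of 59 passing genes named below, 26 passed with each array left out in turn and 33 lost their call in at least 1 of those fits; all 59 kept their direction.

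**Figure D1:**
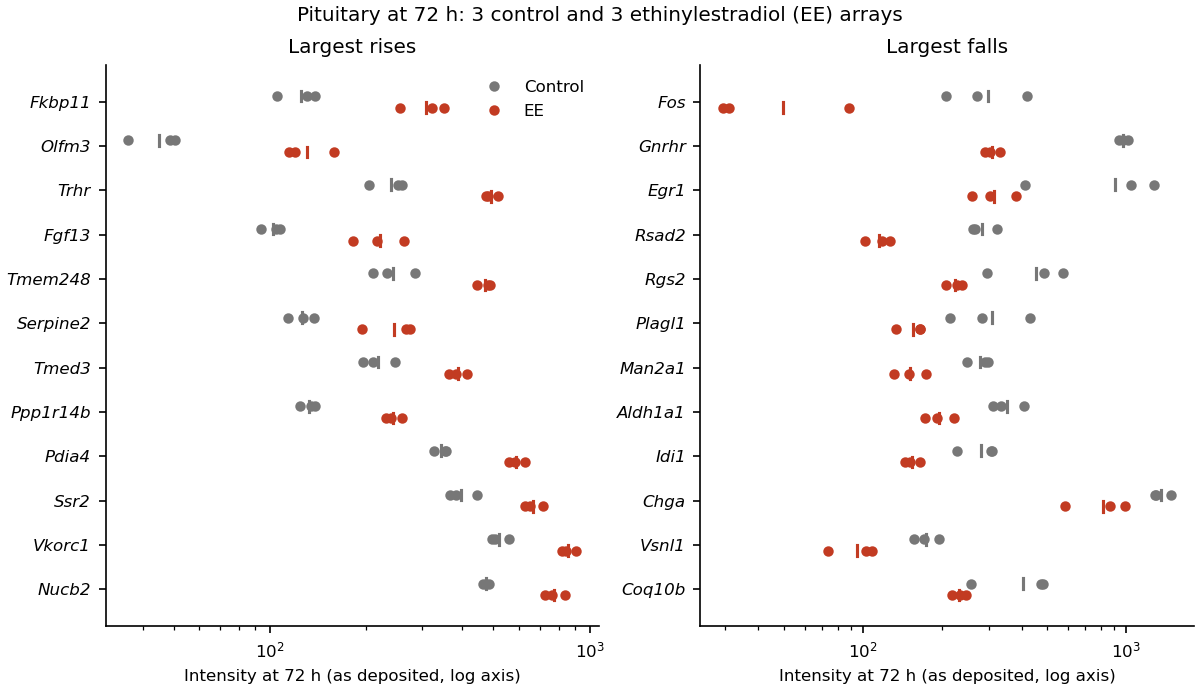
Intensities on the 3 control (grey) and 3 EE (red) arrays at 72 h, on a log axis, for the 12 largest rises (left) and the 12 largest falls (right). They were taken among genes that passed, with groups that did not overlap and a mean intensity above 126 in the higher group. Vertical ticks are group means. Fkbp11 read 105.3 to 138 on the controls and 255 to 351 with EE, and Gnrhr 939 to 1019 on the controls and 292 to 332 with EE.

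The firmest fall was in the gonadotroph receptor gene. Gnrhr read 1019, 969 and 939 on the control arrays and 304.5, 292 and 332 on the EE arrays, a mean intensity 3.15-fold lower (offset log2 difference -1.56, SE 0.17, adjusted p = 5.77e-06). Every EE array lay below every control array of all 5 times. In bulk tissue, fewer cells of a type and less RNA per cell cannot be told apart, here or for any gene below. A second Gnrhr probe set gave -1.60 (adjusted p = 4.45e-05). The fall was already present at the 2 preceding times, -0.86 at 24 h (adjusted p = 0.0353) and -1.21 at 48 h (adjusted p = 0.000841). Part of the 72 h difference came with higher controls: Gnrhr in the 72 h controls stood 0.51 above earlier controls (adjusted p = 0.0474), and EE at 72 h against the 24 and 48 h controls gave -1.30 (adjusted p = 3.15e-06).

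The gonadotropin subunits did not pass at 72 h. Lhb, the luteinizing hormone subunit, read 2559, 2708 and 2824 on the controls and 1928, 1520 and 1928 with EE; the groups did not overlap, but the difference of -0.59 (SE 0.17) had an adjusted p of 0.0546. Fshb, the follicle-stimulating hormone subunit, read 1124, 490 and 464.5 on the controls and 282.5, 462 and 379 with EE (-0.74, SE 0.37, adjusted p = 0.383), so 1 of the 3 controls was high. The 72 h control level of Fshb was itself low: it was 1.07 below the earlier controls (adjusted p = 0.0607) and 1.75 below the 24 and 48 h controls (log2 difference -1.75, adjusted p = 0.00753). Against those 24 and 48 h controls the EE level at 72 h was lower by far (-2.49, adjusted p = 1.6e-05), and Lhb was lower too (-0.66, adjusted p = 0.00442). The shared subunit Cga had nearly equal means, 5925 ± 311 on the controls and 5855 ± 368 with EE (SD, n = 3 each; adjusted p = 0.972).

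Across the list of 15 gonadotroph markers, 11 were tested, 2 fell (Gnrhr and Egr1) and none rose, with a median of -0.31 against -0.01 over all genes tested, of which 0.966% fell. Gnrhr alone fell without control array 73 or 76 or without any EE array, since Egr1 passed only without control array 75. Inhbb, an activin and inhibin subunit, read 83.1, 74.5 and 73.3 on the controls and 51.8, 58.8 and 56.8 with EE without passing (-0.31, adjusted p = 0.147). Fst, the activin-binding follistatin, read 19.5, 27.6 and 24.1 against 32.4, 35.8 and 37.6 (0.27, adjusted p = 0.313). None of the 22 tested genes of the activin, inhibin, BMP and TGF-beta list passed.

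**Figure D2:**
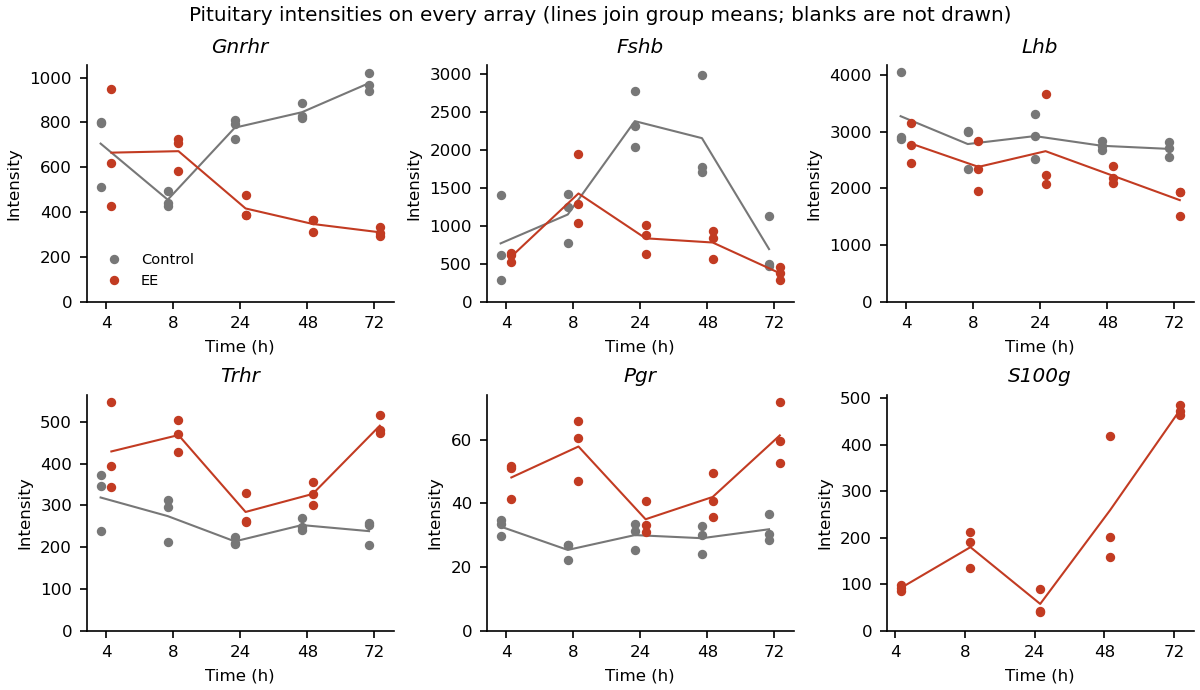
Intensity on each of the 30 pituitary arrays (points) against time, control in grey and EE in red, with lines joining the group means of 3; the vertical axes are linear and start at 0. Gnrhr in EE fell to 292 to 332 at 72 h while controls read 939 to 1019, Fshb in controls was 464.5 to 1124 at 72 h after higher values at 24 and 48 h, and S100g had values only with EE.

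Among genes of the prolactin, growth hormone and thyrotropin cells, the receptor for thyrotropin-releasing hormone stood out. Trhr, through which that peptide drives thyrotrophs and lactotrophs, read 252, 205 and 259 on the controls and 474, 516 and 482 with EE, a mean intensity 2.06-fold higher (0.95, SE 0.14, adjusted p = 0.000232). The EE arrays lay above every control array of all times, and a second, dimmer probe set also rose (0.71, adjusted p = 0.00359), while another dim one did not pass (0.31, adjusted p = 0.299). Trhr was also higher with EE at 8 h (0.72, adjusted p = 0.00666), and earlier EE arrays reached 548. It did not pass at 4, 24 or 48 h. The hormones themselves did not pass. Prl read 5962, 5349 and 5765 on the controls and 6708, 6983 and 6044 with EE (0.21, SE 0.15, adjusted p = 0.595). These are the brightest readings on the arrays, where the response of a probe set to more RNA was not tested. Gh1 differed by 0.02 (SE 0.11, adjusted p = 0.976) and Tshb by 0.01 (SE 0.11, adjusted p = 0.986).

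The factor that defines these 3 lineages, Pou1f1, read 750, 581 and 666 against 828, 752 and 665, overlapping (0.16, adjusted p = 0.644). Drd2, the dopamine receptor that restrains prolactin cells, also overlapped (0.22, adjusted p = 0.591). Ghrhr, the receptor for growth hormone-releasing hormone, read 169, 181 and 159 against 125, 123 and 152.5 (-0.29, adjusted p = 0.346), and the prolactin receptor Prlr read 263, 272 and 269 against 223, 200.5 and 168 (-0.39, adjusted p = 0.19); neither passed. Of 14 lactotroph and somatotroph markers, 8 were tested and Trhr alone rose; of 7 tested thyrotroph markers Trhr alone rose; no member of either list fell. The share rising over all tested genes was 1.74%.

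Known estrogen-responsive genes moved in both directions. Pgr read 30.3, 36.6 and 28.6 on the controls and 52.7, 59.6 and 71.7 with EE (0.53, SE 0.09, adjusted p = 0.00118), with EE above every control array of all times. Pgr was also higher with EE at 8 h (0.63, adjusted p = 0.000288), and did not pass at 4, 24 or 48 h. S100g, a calcium-binding protein known as an estrogen target in uterus and pituitary, was blank on the 3 control arrays at 72 h and read 474, 464 and 486 with EE. It had values on 12 of 12 earlier EE arrays (41 to 419, median 117) and on 0 of 12 earlier controls, so no fold was computed. Gal, the galanin gene of lactotrophs, read 42.8 and 36.0 on 2 control arrays, was blank on the other control, and read 70.2, 55.5 and 66.9 with EE (0.42, SE 0.12, adjusted p = 0.0635). Esr1, the estrogen receptor itself, differed by 0.05 (SE 0.09, adjusted p = 0.869). Of 39 genes on the estrogen-responsive list 18 were tested, of which Pgr rose and Gnrhr and Rasd1 fell. The list median was -0.004, with 9 of the 18 above 0. Over all tested genes 1.74% rose and 0.966% fell. The 2 falls became 1 without control array 73 or 76 or without EE array 81 or 82, where Rasd1 did not pass. With EE at 72 h set against the 24 and 48 h controls, Rasd1 did not pass either (-0.155, adjusted p = 0.381).

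S100g was 1 of 28 genes with values on all 3 EE arrays and none of the controls at 72 h; 22 genes showed the opposite. The other 5 of the 6 brightest were Asic2 (an acid-sensing ion channel, 120, 180.1 and 167), Med24 (a Mediator subunit, 109, 142.5 and 186), Cd44 (the hyaluronan receptor, 134, 142 and 134), Grik1 (a kainate receptor subunit, 121, 136 and 133) and Ecel1 (a neuronal endopeptidase, 117, 102.5 and 124). Asic2 and Grik1 had no value on the 12 earlier controls. Med24 had values on 10 of them, reaching 249.7, so for that gene the blanks at 72 h stood apart from the other controls.

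Genes of the endoplasmic reticulum (ER), where secreted hormones are translocated, folded and glycosylated, were the list with the most rises by number, though not by share. Of 33 tested genes on the ER folding and stress list, 7 rose and none fell, and 30 had a difference above 0, with a median of 0.20; the share rising over all genes was 1.74%. The translocon-associated proteins Ssr2, Ssr3 and Ssr4 and the translocon subunit Sec61b were 4 of the 7. Ssr2 read 444, 367 and 381.5 on the controls and 715, 628 and 651 with EE (0.70, SE 0.08, adjusted p = 1.08e-05). Ssr4 read 847, 813 and 729 against 1256, 1213 and 1277 (0.63, SE 0.08, adjusted p = 4.41e-05). For both genes the EE arrays lay above all 15 control arrays, and both had also risen at 48 h, by 0.57 (adjusted p = 0.000841) and 0.46 (adjusted p = 0.00736).

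The remaining 3 were folding factors: the disulfide isomerase Pdia4, the co-chaperone Dnajc3 and Manf, a small secreted ER stress protein. Pdia4 read 354, 352 and 325 on the controls and 627, 585 and 558 with EE (0.72, SE 0.11, adjusted p = 0.000294). It was also higher with EE at 8 h (0.54, adjusted p = 0.00746), and did not pass at 4, 24 or 48 h. Dnajc3 read 149, 144 and 134 against 243, 213 and 237 (0.59, SE 0.10, adjusted p = 0.00151). The best-known ER chaperone did not pass: Hspa5 had means of 1930 ± 68.1 and 1940 ± 178 (SD, n = 3 each; difference 0.00, adjusted p = 0.995), and the stress transcription factor Xbp1 differed by 0.06 (adjusted p = 0.755); both were chosen after their values were seen. Manf (0.46, adjusted p = 0.00966) lost its call without control array 76 (0.0715) or EE array 83 (0.074), Sec61b (0.35, adjusted p = 0.0141) without control array 75 (0.059), control array 76 (0.0898) or EE array 81 (0.111), and Ssr3 (0.39, adjusted p = 0.0335) with any 1 array left out (0.058 to 0.131). The 26 members that did not pass ranged from -0.15 (Ero1a) to 0.42 (Sdf2l1). The list had 7 passing genes with arrays centred on their medians, 5 with quantile normalization, 4 without control array 76 and 5 or 6 without any other array, and 9 when EE at 72 h was set against the 24 and 48 h controls. That last comparison called far more genes in general, 553 of 6591 (8.39%), 331 higher (5.02%) and 222 lower (3.37%), and its groups differ in time as well as in EE.

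Some other rises, on none of the lists and picked here for their function after their values were seen, were of proteins of the ER, Golgi or secretion. Fkbp11, a prolyl isomerase of secretory cells, read 105.3, 138 and 131 on the controls and 255, 320.2 and 351 with EE, a mean intensity 2.48-fold higher (1.11, SE 0.15, adjusted p = 4.52e-05). Tmed3, a cargo receptor of ER-to-Golgi vesicles, read 246, 210.1 and 196 against 383, 363 and 414 (0.75, SE 0.11, adjusted p = 0.000209). Vkorc1, the ER enzyme that recycles vitamin K, read 506, 559 and 494 against 842, 819 and 909.6 (0.69, SE 0.09, adjusted p = 4.13e-05). Edem2, which trims mannose from misfolded glycoproteins, read 67.4, 62.9 and 58.4 against 111, 102 and 116 (0.57, SE 0.08, adjusted p = 0.000131), and Nucb2, the precursor of nesfatin-1, read 465, 473 and 485 against 765, 727 and 837 (0.67, SE 0.12, adjusted p = 0.00227). All 5 passed with each array left out. In each of these genes the 3 EE arrays lay above all 15 control arrays, as they did for 91 of the 178 passing genes with 3 EE values; 19 more lay below all controls. Over all tested genes with 3 EE values, 368 of 6325 lay beyond all controls in either direction (5.82%).

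The promoter of Dnajc3 is shown because it holds the complete ER stress response element (ERSE), the sequence through which unfolded-protein factors are known to act on chaperone genes. The 250 bases before the RefSeq start (GRCr8, chr15:102432417-102432666, + strand) carry, in capitals, an ERSE (CCAAT and CCACG joined by a spacer of fixed length) at positions -133 to -115 and a half-site of the cyclic AMP response element (CRE), TGACG read on the opposite strand as CGTCA, at -148 to -144, where -1 is the base before the start.
Dnajc3: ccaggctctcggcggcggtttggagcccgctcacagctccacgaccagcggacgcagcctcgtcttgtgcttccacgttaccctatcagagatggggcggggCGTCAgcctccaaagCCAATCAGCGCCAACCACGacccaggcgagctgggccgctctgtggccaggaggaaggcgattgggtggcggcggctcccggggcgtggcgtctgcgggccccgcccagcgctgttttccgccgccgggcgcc
Searched on both strands, the ERSE letters occur in 22 of 33469 RefSeq windows of this length (0.0657%). Of the 179 passing genes 149 matched a window, and Dnajc3 was the 1 with an ERSE; it was also the 1 among 6 matched passing members of the ER list. The letters of the related element UPRE, TGACGTGG, were in none of the 149 (0.52% of all windows), and those of a full palindromic estrogen response element without mismatch were in none (0.0239% of all windows). The shares of all windows count every RefSeq window, also of genes not tested here, while the 149 are 1 window per gene, and enrichment was not tested. A match describes the letters of a window, not a bound site.

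All 21 tested cytosolic ribosomal protein genes had a difference above 0, with a median of 0.23, and 6 rose (Rpl4, Rpl18, Rpl27, Rplp0, Rps3 and Rpsa). The share rising over all tested genes was 1.74%. Rplp0, of the ribosomal stalk, read 1230.0, 1243 and 1271 on the controls and 1920.0, 1710.0 and 1806 with EE (0.53, SE 0.08, adjusted p = 0.000294). Rpsa, of the small subunit, read 1539, 1406 and 1297 against 2056, 2034 and 2065 (0.53, SE 0.10, adjusted p = 0.00284). The EE arrays lay above the controls for 20 of the 21. Over all tested genes with 6 values, 22.9% did not overlap in either direction. Leaving out 1 array at a time gave 2 to 4 rising genes (2 without control array 76 or EE array 81, 3 without control array 73 or EE array 82, and 4 without control array 75 or EE array 83); Rplp0 and Rpsa kept their calls throughout. With quantile normalization 2 of the 21 rose in place of 6, and against the 24 and 48 h controls 20 of 21 rose, a comparison in which 5.02% of all genes rose. Of the 28 tested ribosome biogenesis genes Nop56 alone rose (0.42, adjusted p = 0.0293), which it did in 2 of the 6 fits that left out an array (0.48 without control array 75 and 0.48 without EE array 82). Its rise with EE was larger at 4 h (1.06, adjusted p = 8.7e-07) and 8 h (0.84, adjusted p = 4.27e-05). Ribosomal protein genes have many processed copies, and signal shared with copies could not be told apart.

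Of 16 tested mitosis genes 14 had a difference above 0 (median 0.27) and 3 rose: Ccnb2 (cyclin B2), Cks2 (a partner of mitotic kinases) and Top2a (the topoisomerase that separates replicated chromosomes). The share rising over all tested genes was 1.74%. Ccnb2 read 67.01, 58.5 and 65.7 on the controls and 98.8, 110.1 and 89.4 with EE (0.45, SE 0.10, adjusted p = 0.00746; 0.0515 without EE array 82). Cks2 read 127, 112 and 112 against 205, 178 and 171 (0.54, SE 0.14, adjusted p = 0.0366), and lost its call with any 1 array left out (adjusted p 0.067 to 0.176). Top2a read 64.4, 75.5 and 60.4 against 99.0, 89.1 and 99.95 (0.37, SE 0.10, adjusted p = 0.049) and kept its call only without control array 75 (0.0485). For these 3 genes EE lay above every control array of all times. The count of 3 became 2 without control array 73, control array 75 or EE array 83, 1 without control array 76 or EE array 81, and 0 of 14 without EE array 82. The same lean was present at earlier times. At 48 h 15 of 15 tested mitosis genes were above 0 (median 0.33), and Ccnb1 and Top2a rose (Top2a 0.59, adjusted p = 0.00561). At 24 h 13 of 15 were above 0 (median 0.19) and none rose. The effect at 72 h minus that at 48 h had a list median of -0.05.

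Some division genes differed between the 72 h controls and earlier controls, where 4 of 14 tested mitosis genes were higher in the former (Cdk1, Cdkn3, Mki67 and Hmmr), which became 1 without control array 73 and 0 without control array 75 or 76. Over all tested genes 1.08% were higher in the 72 h controls. Set against the 24 and 48 h controls in place of their own, the EE arrays had 12 of 14 mitosis genes higher, where 5.02% of all genes were. The DNA replication list had 1 of 19 tested genes rise with EE at 72 h (Top2a), with 17 above 0 and a median of 0.15. The share rising over all tested genes was 1.74%. At 48 h 18 of 19 were above 0 (median 0.15) and at 24 h 15 of 18 (median 0.19). In the 72 h controls against earlier controls 17 of 18 were above 0 (median 0.19) and 1 was higher (Tk1). None of 7 tested G1 cyclins and kinase inhibitors passed.

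**Figure D3:**
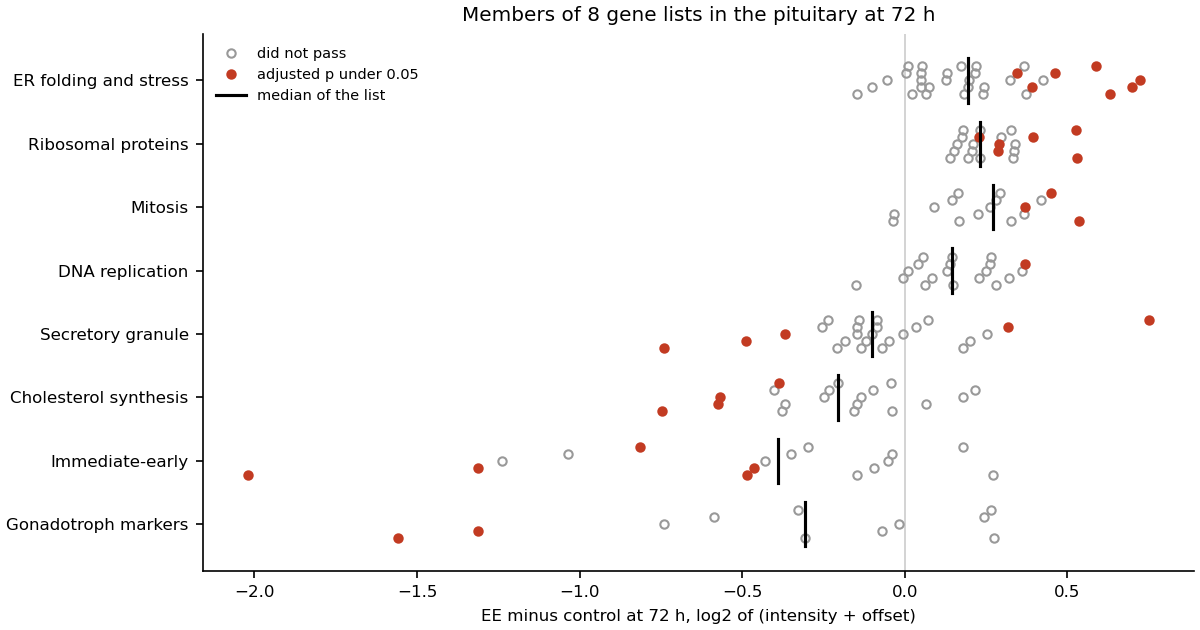
Differences between EE and control at 72 h for the tested members of 8 gene lists, in log2(intensity + offset); filled points passed an adjusted p under 0.05, open points did not, and black bars are list medians (vertical scatter has no meaning). ER genes had a median of 0.20 and ribosomal protein genes of 0.23, while immediate-early genes had a median of -0.39 and gonadotroph markers of -0.31.

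Secretory granule genes moved both ways. Chga, the granule protein chromogranin A, read 1483, 1300.0 and 1284 on the controls and 990.3, 585 and 866 with EE (-0.74, SE 0.18, adjusted p = 0.02), below every control array of all times. Its call was lost without control array 73 (-0.68, adjusted p = 0.0944), control array 76 (-0.78, 0.051) or EE array 82 (-0.53, 0.147). Sytl4, which tethers granules to the membrane, fell (-0.49, adjusted p = 0.0241), as did the synaptotagmin Syt4 (-0.37, adjusted p = 0.0228). Both passed only in the fits without control array 75 (both genes), EE array 83 (Sytl4) or EE array 82 (Syt4), with adjusted p up to 0.135 and 0.129 in the others. Rab3d, a granule GTPase, read 65.5 and 66.1 on 2 controls, was blank on the other, and read 139, 132 and 131 with EE (0.75, SE 0.17, adjusted p = 0.0152; 0.0583 without EE array 81). Atp6ap1, an accessory subunit of the proton pump that acidifies granules, rose by 0.32 (adjusted p = 0.0301) and passed only without control array 75 (0.0379). These were the 2 rises and 3 falls among 25 tested members, whose median was -0.10. Over all tested genes 1.74% rose and 0.966% fell.

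Other large rises were spread over functions. Olfm3, a secreted olfactomedin protein, read 48.5, 36.0 and 50.6 on the controls and 115, 158 and 120.2 with EE (1.06, SE 0.12, adjusted p = 5.77e-06). Fgf13, an intracellular fibroblast growth factor relative that binds sodium channels, read 104.5, 107 and 93.9 against 181, 263 and 217 (0.90, SE 0.15, adjusted p = 0.00104). Serpine2, a serine protease inhibitor, read 127, 138 and 114 against 274, 194 and 267 (0.79, SE 0.14, adjusted p = 0.00199), and Ppp1r14b, a phosphatase inhibitor, read 124, 135 and 139 against 230.4, 239 and 259.8 (0.74, SE 0.12, adjusted p = 0.000379). Olfm3 and Fgf13 lay above all control arrays of all times; Serpine2 did not. Tmem248, a membrane protein, rose by 0.88 (adjusted p = 0.000328), but a second, dimmer probe set of it gave -0.39 (adjusted p = 0.263), and its 72 h controls were below earlier controls (-0.43, adjusted p = 0.0384).

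A set of falls also passed against the 24 and 48 h controls, among them Plagl1, a zinc-finger transcription factor of an imprinted locus (-1.32, adjusted p = 1.26e-05). Plagl1 read 432, 214 and 282 on the controls and 134, 165 and 165 with EE (-0.82, SE 0.19, adjusted p = 0.0154), below every control array of all times. It was already lower at 8 h (-1.07, adjusted p = 0.00264), 24 h (-1.01, adjusted p = 0.0245) and 48 h (-1.10, adjusted p = 0.00561). Its call at 72 h was lost without control array 73 (-0.58, adjusted p = 0.141) or EE array 81 (-0.74, adjusted p = 0.0917). Man2a1, a Golgi mannosidase, read 248.5, 292 and 297 against 131, 149 and 174 (-0.76, SE 0.12, adjusted p = 0.000487; -0.63 against the 24 and 48 h controls, adjusted p = 0.000342). Aldh1a1, a retinaldehyde dehydrogenase listed with stem and folliculostellate cell markers, read 312, 408.5 and 334 against 222, 191 and 172 (-0.75, SE 0.16, adjusted p = 0.0065; -0.69 against the 24 and 48 h controls, adjusted p = 0.00156); it was the 1 of 11 tested markers of those cells that fell, and none rose. Neurod1, a factor of corticotrophs, read 136, 177 and 134 against 92.6, 91.2 and 94.8 (-0.52, SE 0.12, adjusted p = 0.00989; 0.0838 without control array 75; -0.46 against the 24 and 48 h controls, adjusted p = 0.004) and was the 1 of 6 tested corticotroph and melanotroph markers that fell. Beside both marker lists, the share falling over all tested genes was 0.966%.

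Immediate-early genes, many of them transcription factors induced within minutes of a stimulus, included Fos, the largest fall on the offset scale, and their falls depended on which controls were used. Fos read 206, 271 and 420.5 on the controls and 88.3, 29.3 and 30.9 with EE (-2.02, SE 0.37, adjusted p = 0.00227). Egr1, which in gonadotrophs acts on Lhb, read 1275, 411 and 1038 against 380.2, 259 and 304 (-1.31, SE 0.37, adjusted p = 0.049). Nr4a2, an orphan nuclear receptor, read 226, 69.5 and 214 against 65.8, 70.9 and 83.7 (-0.81, SE 0.23, adjusted p = 0.049), so control array 75 was at the EE level. Egr2 (-0.49, adjusted p = 0.0307) and Rasd1 (-0.46, adjusted p = 0.0217) fell as well. Of 16 tested members of the list, 5 fell and none rose, with a median of -0.39. The share falling over all tested genes was 0.966%. Fos passed with each array left out. Egr1 (-1.78, adjusted p = 0.00602), Egr2 (-0.63, adjusted p = 0.00547) and Nr4a2 (-1.25, adjusted p = 0.000106) passed only without control array 75, where 7 of 15 tested members fell. Without any other array 1 or 2 members fell; Rasd1 passed only without control array 75 or EE array 83.

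The 72 h controls were the high ones. Against the 12 earlier control arrays, 7 of 15 tested immediate-early genes were higher in the 72 h controls (Fos, Egr1, Nr4a1, Nr4a2, Nr4a3, Ier2 and Dusp1), against 1.08% of all tested genes; none was lower, and the median was 0.38. This count became 2 of 14 without control array 73 and 1 of 14 without control array 76, and was again 7 of 15 without control array 75. Fos stood 1.72 above earlier controls (adjusted p = 0.00391), whose 12 arrays read 15.9 to 192 with a median of 49. Nr4a2 stood 1.27 above (adjusted p = 0.000557), with earlier controls at 23.3 to 82.8. With EE at 72 h set against the 24 and 48 h controls, none of the 15 tested members fell: Fos was then 0.23 (adjusted p = 0.736), Egr1 0.38 (adjusted p = 0.517) and Nr4a2 0.59 (adjusted p = 0.0607). In the EE arm none of 16 tested members differed between 72 h and earlier times.

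**Figure D4:**
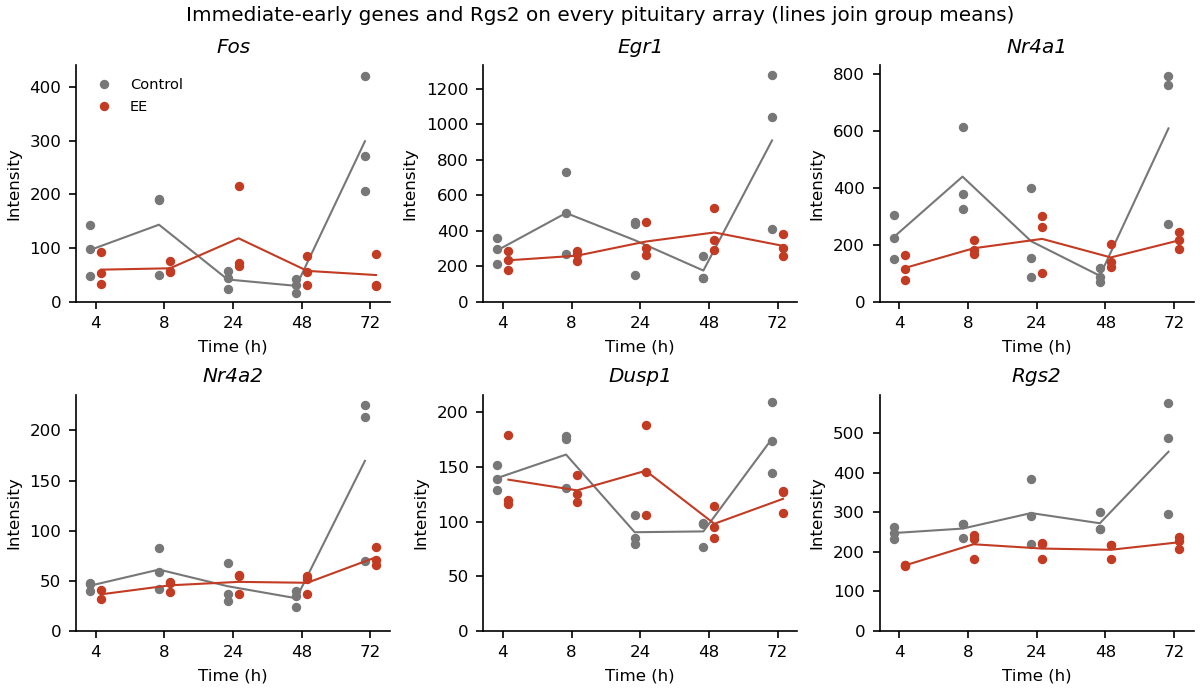
Intensity on each of the 30 pituitary arrays (points) for 5 immediate-early genes and Rgs2, control in grey and EE in red, lines joining group means of 3; vertical axes are linear and start at 0. Fos read 206 to 420.5 in the 72 h controls against 29.3 to 88.3 with EE, and control array 75 was the lowest of its group for Egr1, Nr4a1, Nr4a2 and Rgs2.

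Over all genes, 120 of 6555 differed between the 72 h controls and the earlier controls (1.83%), 71 higher (1.08%) and 49 lower (0.748%). These counts dropped to 13, 45 and 6 without control arrays 73, 75 and 76. Against the 24 and 48 h controls alone, 24 of 6648 genes differed (0.361%), and against the 48 h controls alone 8 of 6747 (0.119%). All 8 were higher, namely Fos, Egr1, Nr4a1, Nr4a2, Ier2, Dusp1, Sik1 and Coq10b. Coq10b, a mitochondrial coenzyme Q-binding protein, read 481, 257 and 473 in the 72 h controls and 126.5 to 265 in the 12 earlier ones (0.92, SE 0.13, adjusted p = 0.000557). With EE it read 233, 247 and 218, a fall of the EE arrays against their own controls (-0.67, SE 0.16, adjusted p = 0.0215) that passed only without control array 75 (-0.94) or EE array 82, and was 0.39 against the 24 and 48 h controls (adjusted p = 0.0898).

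Several of the largest EE falls shared this pattern. Rgs2, a regulator of G-protein signalling, read 577, 295 and 487 on the controls and 237, 207 and 228 with EE (-0.87, SE 0.16, adjusted p = 0.0021), and its 72 h controls were 0.65 above earlier ones (adjusted p = 0.0076). Against the 24 and 48 h controls it was -0.29 (adjusted p = 0.217). Rsad2, an antiviral enzyme, read 262, 266 and 322 against 118, 126 and 102 (-1.09, SE 0.29, adjusted p = 0.0396), lost its call with any 1 array left out (adjusted p 0.0792 to 0.159), and was -0.34 against the 24 and 48 h controls (adjusted p = 0.469). None of the 16 tested interferon-responsive genes passed. Vsnl1, a neuronal calcium sensor, fell by 0.70 (adjusted p = 0.00239) with 72 h controls 0.50 above earlier ones (adjusted p = 0.0117), and was -0.21 against the 24 and 48 h controls (adjusted p = 0.297). Against its own controls, Vsnl1 was also lower with EE at 4 h (-0.85, adjusted p = 0.000257) and 8 h (-0.51, adjusted p = 0.0284). It did not pass at 24 h (-0.07, adjusted p = 0.986) or 48 h (-0.04, adjusted p = 0.97).

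In the other direction, the genes lower in the 72 h controls included Lamb2, a laminin of basement membranes. Lamb2 read 31.7, 60.7 and 47.2 in the 72 h controls, 67.6 to 97.9 in earlier controls and 93.1, 97.1 and 98.0 with EE. It was lower in the 72 h controls than in earlier ones (-0.52, adjusted p = 0.00603) and higher with EE than in its own controls (0.71, SE 0.12, adjusted p = 0.00068), and stood at 0.25 against the 24 and 48 h controls (adjusted p = 0.132). Lama4, another laminin, rose with EE (0.48, adjusted p = 0.0226) and passed only without control array 75 (0.59, adjusted p = 0.00857). They were the 2 rises among 36 tested matrix genes, of which none fell with EE and 4 were lower in the 72 h controls than earlier (Col4a1, Col18a1, Lamb2 and Timp3). Over all tested genes 1.74% rose with EE and 0.748% were lower in the 72 h controls. Klf9, a glucocorticoid-responsive factor, read 200.1, 214 and 215 in the 72 h controls, below the earlier median of 311 (-0.49, adjusted p = 0.00175), and read 176, 208 and 204 with EE (adjusted p = 0.784 against control).

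Promoters of 3 genes with higher 72 h controls are shown for the CRE half-site, TGACG or CGTCA on the other strand, in capitals; cyclic AMP signalling is known to act through such sequences. All are the 250 bases before the RefSeq start in GRCr8: Coq10b at chr9:64047918-64048167 (+ strand) with half-sites at -153 to -149 and -142 to -138, Rgs2 at chr13:58352667-58352916 (- strand) with 1 at -216 to -212, and Gnrhr at chr14:22211416-22211665 (+ strand) with 1 at -23 to -19.
Coq10b: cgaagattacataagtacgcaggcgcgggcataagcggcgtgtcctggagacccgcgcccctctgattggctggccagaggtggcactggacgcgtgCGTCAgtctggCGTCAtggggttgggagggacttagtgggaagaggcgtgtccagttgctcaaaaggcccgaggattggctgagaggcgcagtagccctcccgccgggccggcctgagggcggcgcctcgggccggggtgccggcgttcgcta
Rgs2: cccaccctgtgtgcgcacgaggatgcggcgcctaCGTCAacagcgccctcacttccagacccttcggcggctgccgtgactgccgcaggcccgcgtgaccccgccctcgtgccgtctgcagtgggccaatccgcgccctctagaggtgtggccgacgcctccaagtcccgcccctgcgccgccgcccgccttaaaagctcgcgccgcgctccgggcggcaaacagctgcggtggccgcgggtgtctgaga
Gnrhr: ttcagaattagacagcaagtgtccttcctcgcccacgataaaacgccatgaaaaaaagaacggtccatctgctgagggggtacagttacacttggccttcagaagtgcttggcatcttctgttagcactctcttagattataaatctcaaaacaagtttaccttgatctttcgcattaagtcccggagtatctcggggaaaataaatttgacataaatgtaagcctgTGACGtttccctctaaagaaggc
The half-site occurs in 6097 of 33469 windows (18.2%). It was in 20 of the 60 windows of genes higher in the 72 h controls (33.3%) and in 42 of the 149 windows of genes called for EE (28.2%). The full element, TGACGTCA, which contains the half-site, was in 3 of the 60 and 5 of the 149, against 1.59% of all windows. The shares of all windows count every RefSeq window, also of genes not tested here, while the 60 and 149 are 1 window per gene. They are therefore not a like comparison, and enrichment of either sequence was not tested.

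Some cholesterol synthesis genes fell with EE. Of 19 tested genes 4 fell and none rose, with a median of -0.21: Idi1 and Fdft1, an isomerase and the squalene synthase of the pathway, Sqle, which oxidises squalene, and Insig1, the sterol sensor that holds the pathway back. The share falling over all tested genes was 0.966%. Idi1 read 310, 228 and 307 on the controls and 164, 144 and 150.3 with EE (-0.75, SE 0.15, adjusted p = 0.00641), and its 72 h controls were 0.54 above earlier ones (adjusted p = 0.0204). Insig1 read 208.5, 172 and 186 against 125, 104.9 and 116 (-0.58, SE 0.12, adjusted p = 0.00844; 0.0637 without control array 73). Sqle read 184, 185 and 188 against 136, 99.5 and 109.7 (-0.57, SE 0.14, adjusted p = 0.0191) and passed only without EE array 81 (-0.67, adjusted p = 0.0169). Fdft1 fell by 0.39 on the log2 scale (adjusted p = 0.0484) and passed only without control array 76 or EE array 81. Second, dimmer probe sets of Idi1 (-0.50, adjusted p = 0.0815) and Fdft1 (-0.25, adjusted p = 0.124) did not pass. The count of 4 became 1 without control array 73, 2 without EE array 82 or 83, 3 without control array 75 or 76 and 4 without EE array 81. Against the 24 and 48 h controls 1 of the 19 genes was lower, Srebf1, a sterol-regulated transcription factor (-0.47, adjusted p = 0.00435), and none of these 4, of which Idi1 gave -0.10 (adjusted p = 0.727). Against their own controls at 8 h, Insig1 (-0.59, adjusted p = 0.00897) and Idi1 (-0.59, adjusted p = 0.0301) were lower with EE. Sqle (-0.32, adjusted p = 0.181) and Fdft1 (-0.24, adjusted p = 0.199) did not pass there, and none of the 4 passed at 4, 24 or 48 h.

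Other fixed lists showed few passing genes. Fkbp5, a chaperone induced by glucocorticoids, fell (-0.42, adjusted p = 0.0307) and Errfi1 fell (-0.53, adjusted p = 0.0366) among 13 tested glucocorticoid-responsive genes. Ndufb5, of respiratory complex I, was the 1 rise among 39 tested respiratory chain and ATP synthase genes (0.29, adjusted p = 0.0159). Apc, a brake on Wnt signalling, was the 1 fall among 12 tested Wnt genes (-0.25, adjusted p = 0.043). Over all tested genes 1.74% rose and 0.966% fell, and the 1 rise among 39 was near the first of these shares. No gene passed among 12 tested circadian clock, 11 angiogenesis, 14 Igf and growth hormone axis, 10 macrophage and leukocyte, and 7 endothelial and pericyte genes. Calls of Fkbp5 and Apc were lost with any 1 array left out (adjusted p 0.0509 to 0.135, and 0.0634 to 0.154). Errfi1 passed only without control array 75 (-0.77), and Ndufb5 lost its call without control array 73 (0.0601), control array 75 (0.0767) or EE array 81 (0.141).

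Markers of cells other than hormone cells were read beside these results. All 3 tested blood cell and platelet markers (of 12 listed) were lower with EE without passing, and their summed intensity ran from 6515 to 7312 on the controls and 5001 to 5774 with EE. Alas2, the heme enzyme of red cell precursors, read 628, 601 and 766 against 310.4, 221 and 322 (-1.14, SE 0.46, adjusted p = 0.23), and Hbb, a beta-globin, read 5823, 6625 and 6474 against 5099, 4743 and 5416 (-0.31, SE 0.28, adjusted p = 0.713). Another globin gene, Hba-a3, was 1.43 higher in the 72 h controls than in earlier controls (adjusted p = 0.0076). Of 9 tested neural lobe, glia and neuron markers, the neurofilament gene Nefm fell (-0.59, adjusted p = 0.038; only without control array 76 did it still pass) and none rose, and their summed intensity was 2385 to 2654 on the controls and 2024 to 2315 with EE. The share falling over all tested genes was 0.966%. Mobp was blank on all 6 arrays. The part of blood or neural tissue in the falls at 72 h was not tested.

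Whether the response to EE at 72 h differed from the response at 48 h or 24 h was tested directly as a difference between the effects. No gene of 6547 passed for 72 h minus 48 h (0.00%; smallest adjusted p = 0.353, with 298 genes at an unadjusted p under 0.05 in limma). For 72 h minus 24 h, 1 gene of 6536 passed (0.0153%), which was Fos (-2.93, SE 0.53, adjusted p = 0.0464), with 522 genes at an unadjusted p under 0.05. By themselves, the 48 h comparison called 22 of 6847 genes (0.321%) and the 24 h comparison 6 of 6838 (0.0877%). The most calls came earlier, with 235 of 6666 genes at 8 h, and the 4 h comparison called 103 of 6826. For Trhr the effect at 72 h exceeded that at 48 h by 0.62 (SE 0.20, adjusted p = 0.888) and for Fkbp11 by 0.53 (SE 0.21, adjusted p = 0.966), neither of which passed. So the higher number of calls at 72 h than at 24 or 48 h is not a test of a different effect.

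Within the EE arm, 293 of 6488 genes differed between 72 h and the 4 earlier times (4.52%), 177 higher (2.73%) and 116 lower (1.79%). Of those that differed, 60.4% were higher as deposited and 42.5% with quantile normalization. Without EE array 81 the count was 79, without array 82 it was 155 and without array 83 it was 116. Among the lists mitosis genes had the highest share, with 10 of 14 tested members higher in EE at 72 h, and 7 of 18 DNA replication genes were higher. The 72 h controls leaned the same way against earlier controls. There 14 of 14 mitosis genes were above 0 (median 0.25, against 0.42 in the EE arm). So were 17 of 18 DNA replication genes (median 0.19, against 0.22 in the EE arm). Whether these changes differed between the arms was not tested. Of 11 tested gonadotroph markers, 4 were lower in EE at 72 h (Lhb, Fshb, Gnrhr and Inhbb) and none was higher. S100g was higher at 72 h than on earlier EE arrays (1.67, adjusted p = 0.000133).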

How the data were processed

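Probe set intensities were deposited as 1 table for all 100 arrays. Per the labels' protocols, 5 µg of total RNA (RNeasy kit) was biotin-labelled and hybridised to RAE230A arrays; how signals were summarised and scaled, and what a blank stands for, is not given in the sources used here. Groups and array numbers came from the sample titles. Of 15923 probe sets, 12783 named 1 gene, 312 several, 2771 none and 57 were array controls; 8178 genes had a pituitary value. For each gene the probe set with the highest mean was kept. The deposited intensities were turned into log2(intensity + 33.7), blanks left out. limma 3.58.1 in R 4.3.3 fitted a mean for each of 10 pituitary groups over 30 arrays; a gene was tested where each group of a contrast had at least 2 of 3 values. Promoters were RefSeq windows (GRCr8), cut to 250 of 300 bases. The arrays are few, which limits precision; the code was tested on simulated data.

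Named genes were the 12 largest rises and 12 largest falls that passed, did not overlap and exceeded an intensity of 126 in the higher group; up to 4 genes of each of 31 lists by adjusted p; 14 genes of pituitary interest; and the 8 smallest adjusted p-values in each direction of the other comparisons. Remaining passing members of a list and genes in counts under 10 were added after their values were seen. The members and lists were chosen with earlier results of these data known. Of 715 listed genes, 527 had a pituitary value.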

Additional observations from a re-analysis of the deposited data

Results flagged for a closer look

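The effect of EE on Fos at 72 h minus its effect at 24 h was -2.93 on the log2 scale (SE 0.53, limma adjusted p = 0.0464), by the test of the difference between the times itself. No gene passed this test with an offset of 1, with quantile normalization, over genes above the median intensity, over every single-gene probe set, or without control array 76, EE array 82 or EE array 83. EE minus control for Fos was -2.02 at 72 h and 0.91 at 24 h. The 72 h controls read 206, 271 and 420.5, and the 24 h EE arrays read 71.1, 67.1 and 215.7. The difference from 48 h was -2.53 (adjusted p = 0.353).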

How the results depend on the processing

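The count of genes passing for EE at 72 h (179) was 330 with array weights, 703 against all 5 control groups and 553 against the 24 and 48 h controls, and 82 to 120 with 1 array left out. For the 72 h controls against earlier controls (120) it was 400 with array weights, 24 against the 24 and 48 h controls, 8 against the 48 h controls, and 6 to 45 with 1 array left out. For EE at 72 h against earlier EE (293) it was 561, 65 against the 24 and 48 h EE groups, and 79 to 155. The difference from 48 h (0 genes) gave 2 with array weights and 0 to 3. The difference from 24 h (1 gene) gave 16 with array weights, 0 with an offset of 1, quantile normalization, only genes above the median intensity or every single-gene probe set, and 0 to 1. Against all 5 control groups, Coq10b turned to 0.066 and Nr4a2 to 0.20; against the 24 and 48 h controls, Fos turned to 0.23, Egr1 to 0.38, Coq10b to 0.39 and Nr4a2 to 0.59; a second probe set of Tmem248 gave -0.39. The cause was not tested. The other scalings, offsets, filters and fits moved none of these totals by over 1.5 times, but quantile normalization took the genes higher with EE from 115 to 74 and those higher in EE at 72 h than in earlier EE from 177 to 94; the median difference over all genes stayed between -0.01 and 0.00. The list counts against other controls, with each array left out and under other scalings were chosen after seeing the data. No paired analysis was possible because EE and control arrays of the pituitary carry no number in common. Genes that were blank in 1 group were not tested. Among other probe sets of named genes that passed, 7 also passed in the same direction. A further 6 kept the direction without passing. They were of Trhr, Idi1, Fdft1, Top2a (0.44, limma adjusted p = 0.0636), Syt4 (-0.38, 0.0722) and Ssr3 (0.32, 0.439), while another of Ssr3 passed (0.49, 0.0387). The remaining 1, of Tmem248, went the other way.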
